A study of Homo sapiens with 30 samples.

Results

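The genes followed here are 10 targets of the tumour suppressor p53 and growth arrest genes, chosen by gene symbol from the 18460 genes of the deposited count tables: MDM2, CDKN1A, GADD45A, GADD45B, BTG1, BTG2, SESN1, TP53INP1, BBC3 and FAS. They were read in 30 poly-A RNA libraries from a coculture of A549 lung carcinoma epithelial cells on the air side of a membrane insert with EA.hy926 endothelial cells on its underside. At the air-liquid interface, the coculture spent 4 h under clean air (CA), fresh soot particles (SP), soot aged with β-pinene (SOAβPIN-SP) or soot aged with naphthalene (SOANAP-SP). The labels name soot at 1 mg/ml for every aerosol and precursor at 4 mg/ml for the aged ones, where the paper counts per cubic metre. At the shared dilution, the paper estimated the least deposit on the cells for SP and the most for SOANAP-SP. Dose and type of aerosol therefore cannot be told apart. Each line had 4 CA, 3 SP, 4 SOAβPIN-SP and 4 SOANAP-SP libraries, and each replicate was a separate experiment. The A549 cells met the aerosol directly and the EA.hy926 cells did not. Both are established lines, and EA.hy926 is a hybrid of an umbilical vein endothelial cell with a clone of A549, so the lines are not unrelated. No genotype or agent other than the aerosol set the groups apart. The number after the letter e in each column label was read as the experiment, which the labels do not spell out. Read so, no experiment held more than 1 aerosol. Effects of the aerosol and of the experiment therefore cannot be told apart where aerosols are compared, and CA shared an experiment with SP, SOAβPIN-SP and SOANAP-SP once each. The other libraries of each aerosol had no CA library from their own experiment. Differences from CA may therefore also hold differences between experiments.

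p53 is a transcription factor that is held at a low level in unstressed cells because MDM2, a ubiquitin ligase and itself a p53 target, marks it for destruction. After DNA damage p53 accumulates and binds paired half-sites near its targets, which stop the cell cycle (CDKN1A, the GADD45 and BTG genes), limit growth and oxidants (SESN1), amplify the response (TP53INP1) or start apoptosis (BBC3, FAS). Several of the same genes also answer to stress kinases, NF-κB, FOXO factors or serum without p53.

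The genome around each member's start was searched for the sequence p53 is known to bind. A site was 20 bases made of 2 adjoining p53 half-sites with both 4-base cores intact and at most 2 other bases off the consensus, within 5 kb of the start of the gene's main transcript (GRCh38, the build of the read alignment, with GENCODE release 44). Such a site was found for 5 of the 10 members, against 5.11% of 18395 genes searched. The members were chosen as p53 targets and growth arrest genes, so a higher share among them is no separate support. The sites are written 5′ to 3′ on the gene's strand with the cores in capitals.
CDKN1A, chr6:36676449-36676468, 2265 bases upstream of the main transcript: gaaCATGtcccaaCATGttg
BTG2, chr1:203303642-203303661, 1877 bases upstream: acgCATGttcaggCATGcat
GADD45A, chr1:67686775-67686794, intron 3: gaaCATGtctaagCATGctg
FAS, chr10:88991309-88991328, intron 1: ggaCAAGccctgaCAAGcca
GADD45B, chr19:2478021-2478040, exon 4: agaCTTGgttgaaCTTGgtt
The GADD45A site had 1 base off the consensus and the other 4 sites had 2. A match describes letters and not binding, and members without one may have sites with a spacer, more mismatches or a position outside the window.

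BTG1 and BTG2 encode paralogous antiproliferative proteins, and with the aged aerosols in EA.hy926 BTG1 rose where BTG2 fell, so the 250 bases upstream of their starts are shown, with those of CDKN1A and SESN1 for comparison (RefSeq, GRCh38.p14). Capitals mark the GC box (GGGCGG), the CCAAT box (CCAAT) and the TATA box (TATAAA) on either strand. The sequences are from chr12:92145847-92146096 (minus strand), chr1:203305269-203305518 (plus), chr6:36678464-36678713 (plus) and chr6:109094847-109095096 (minus).
BTG1: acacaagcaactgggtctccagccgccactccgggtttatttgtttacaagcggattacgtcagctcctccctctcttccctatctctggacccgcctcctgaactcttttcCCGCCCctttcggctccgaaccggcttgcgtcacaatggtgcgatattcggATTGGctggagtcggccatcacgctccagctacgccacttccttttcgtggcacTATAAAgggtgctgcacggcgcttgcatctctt
BTG2: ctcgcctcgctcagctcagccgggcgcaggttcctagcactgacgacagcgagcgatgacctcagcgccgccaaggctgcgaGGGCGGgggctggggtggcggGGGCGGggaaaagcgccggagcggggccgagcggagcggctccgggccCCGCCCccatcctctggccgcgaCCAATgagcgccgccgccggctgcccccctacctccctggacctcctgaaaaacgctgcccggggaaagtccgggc
CDKN1A: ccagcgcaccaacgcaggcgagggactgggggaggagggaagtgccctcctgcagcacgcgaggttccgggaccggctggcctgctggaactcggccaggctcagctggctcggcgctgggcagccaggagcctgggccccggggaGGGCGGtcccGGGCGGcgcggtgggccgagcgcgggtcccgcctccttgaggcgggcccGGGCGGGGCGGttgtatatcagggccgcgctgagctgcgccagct
SESN1: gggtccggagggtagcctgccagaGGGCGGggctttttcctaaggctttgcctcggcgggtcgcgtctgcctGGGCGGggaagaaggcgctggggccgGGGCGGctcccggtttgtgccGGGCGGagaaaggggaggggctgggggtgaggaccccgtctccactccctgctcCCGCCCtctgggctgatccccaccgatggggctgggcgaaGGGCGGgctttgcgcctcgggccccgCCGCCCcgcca
BTG1 had 1 TATA box, 33 bases upstream of its start, and 1 GC box, and BTG2, CDKN1A and SESN1 had 3, 4 and 7 GC boxes and no TATA box (2 GC boxes in CDKN1A overlap by 1 base). GADD45B, lower in A549 with SOAβPIN-SP, also had a TATA box 31 bases upstream, while MDM2 and BBC3 had no GC box and FAS had 1. The BBC3 window (chr19:47232668-47232917, minus) belongs to a start upstream of its main transcript's start at 47231199. Any link of these letters to the direction of change was not tested. Among 35116 RefSeq promoters of this length, 42.6% held a GC box, 32% a CCAAT box and 10.7% a TATA box. No single p53 half-site without mismatch lay in the upstream windows of the 8 members that had an entry, and 5.57% of all promoters held one.

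Libraries held 7317041 to 15012539 counts in A549 and 10003314 to 16610686 in EA.hy926. A gene was tested in a line when at least 3 libraries had a count of 30 or more, which left 11775 genes in A549 with all 10 members and 10709 in EA.hy926 with 9. TP53INP1 had 7 to 26 counts per library in EA.hy926 and was not tested against CA there. The lines kept their markers, with 10 epithelial markers summing to 14260 to 19300 CPM (the usual depth-scaled count unit, here with TMM-scaled library sizes) in A549 against 1567 to 2112 in EA.hy926, and 9 endothelial markers summing to 84.64 to 138.3 CPM against 1918 to 2399, and 1 epithelial marker was at 0 in all EA.hy926 libraries. The share of counts from mitochondrial genes in A549 ran from 13.11 to 17.4% with SOANAP-SP and from 10.7 to 15.3% in CA. With SP it ran from 9.75 to 11.6% and with SOAβPIN-SP from 9.87 to 13.05%, so both lay below every SOANAP-SP library. The part of this share in the members' differences between aerosols was not tested. Replicate 3 of SOANAP-SP in A549 had the highest level of its group for 9 of the 10 members, and the counts of members that follow are also given without it where that changes them.

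In clean air, the members differed widely in level and between the lines. Per kilobase of main transcript, CDKN1A was the most abundant member in both, at 512 CPM per kb in A549 and 139 in EA.hy926 (means, n = 4). GADD45B followed at 275 and 89.0 CPM per kb, while SESN1 was the lowest in A549 at 1.47 and TP53INP1 the lowest in EA.hy926 at 0.273. Of the 9 members tested in each line, 6 differed between the lines in CA by the rule used throughout, where 70.7% of 12599 genes did. The rule was an edgeR adjusted p of at most 0.05 together with a fold change of 0.5 or more, up or down, on the log2 scale. EA.hy926 had less BTG1 (log2 fold change -2.44 ± 0.10, SE), CDKN1A (-1.88 ± 0.15) and GADD45B (-1.63 ± 0.26), and more SESN1 (1.85 ± 0.17), FAS (1.31 ± 0.13) and BTG2 (0.95 ± 0.11). These 6 edgeR adjusted p-values ran up to 4.7e-06. TP53INP1 had 13 to 26 counts in the EA.hy926 CA libraries and entered that fit through its level in A549 alone, so its difference is given as levels without a test, 19.4 to 28.1 CPM in A549 against 1.10 to 1.91. MDM2 (0.35 ± 0.10), GADD45A (-0.39 ± 0.13) and BBC3 (-0.21 ± 0.11) stayed within the size limit, and with library totals in place of scaled ones MDM2 passed it at 0.52.

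**Figure D1:**
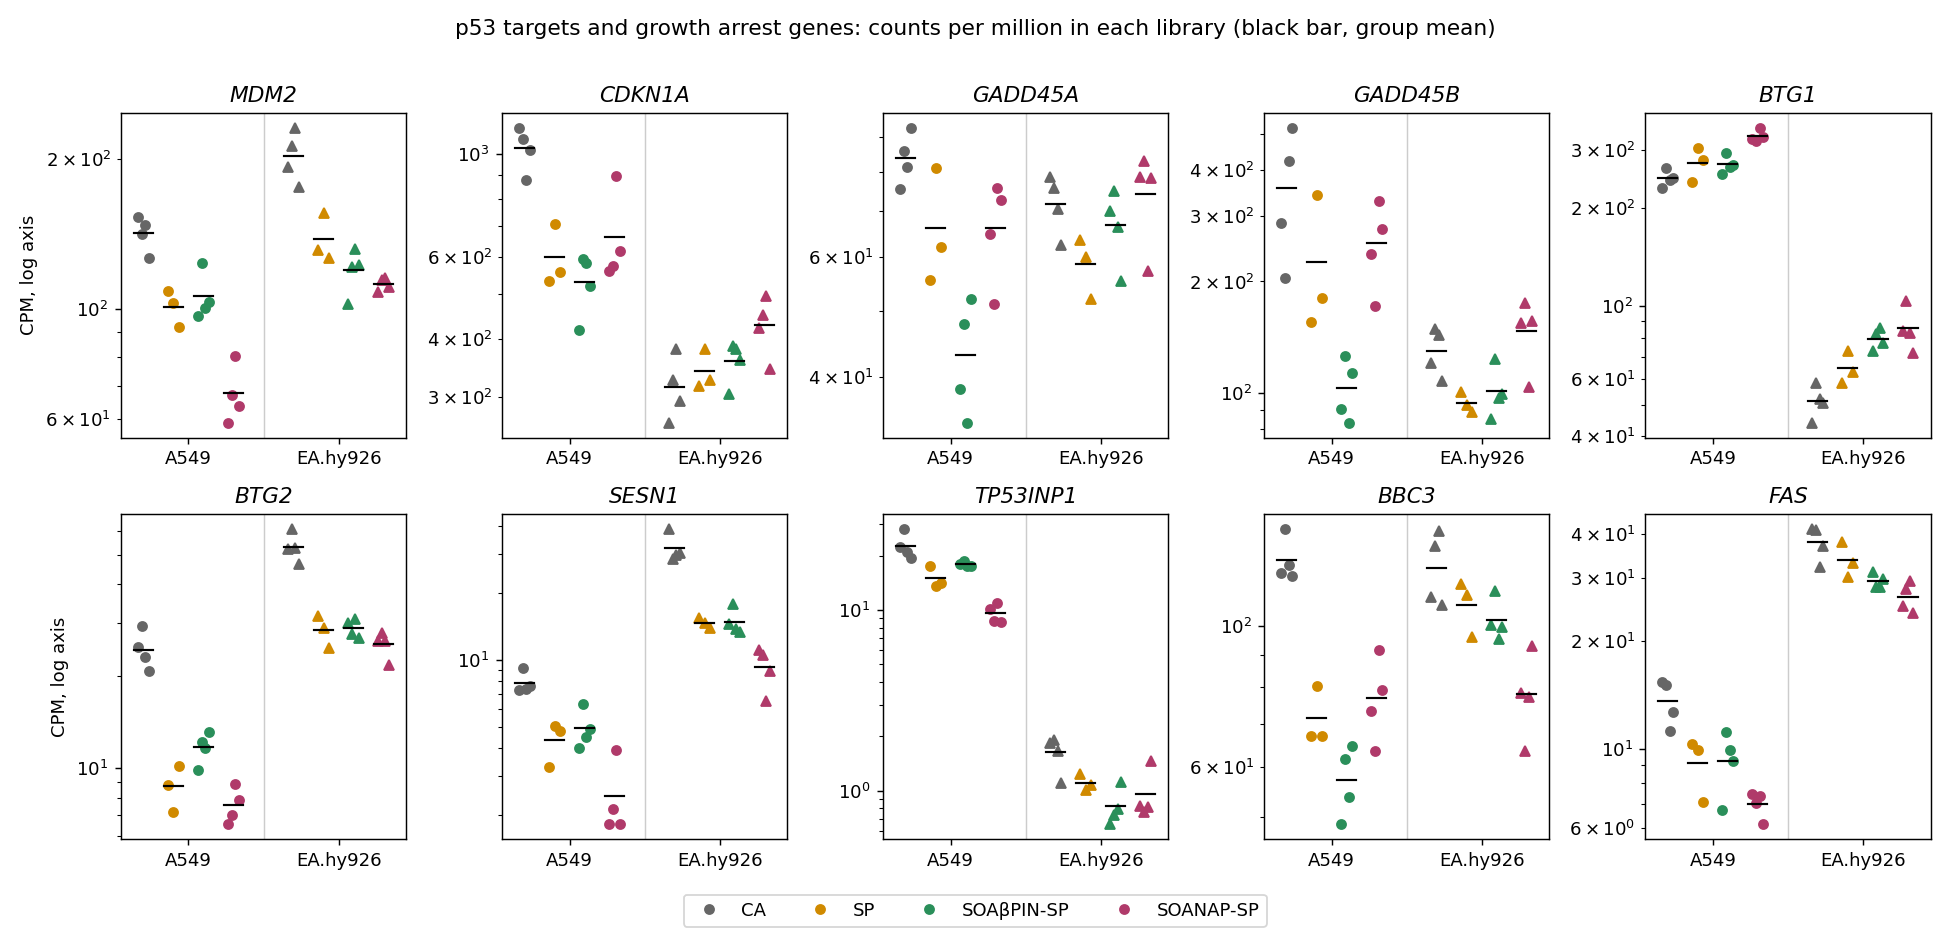
CPM (log axis) of the 10 genes in every library, A549 as circles on the left of each panel and EA.hy926 as triangles on the right, coloured by exposure, with black bars for the group means. BTG2 and SESN1 lie below CA in every aerosol library of both lines, and BTG1 lies above CA in every SOANAP-SP library.

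Against clean air, the members fell far more often than they rose, with 6 or 7 of 10 called lower in A549 and 3 to 5 of 9 in EA.hy926. In A549, SP lowered 6 of 10 (CDKN1A, BTG2, SESN1, TP53INP1, BBC3, FAS), where 3.97% of all tested genes were lower and 2.02% higher. SOAβPIN-SP lowered 7 (CDKN1A, GADD45A, GADD45B, BTG2, SESN1, BBC3, FAS) against 8.93% of all genes lower and 4.31% higher, and SOANAP-SP lowered 7 (CDKN1A, MDM2, BTG2, SESN1, TP53INP1, BBC3, FAS) against 11.3% lower and 6.92% higher. No member was called higher in A549, where BTG1 was the only one with a positive difference. In EA.hy926, SP lowered 3 of 9 (MDM2, BTG2, SESN1) against 5.12% of all genes lower and 4.72% higher. SOAβPIN-SP lowered the same 3 and raised BTG1, against 6.14% lower and 5.04% higher. SOANAP-SP lowered 5 (MDM2, BTG2, SESN1, BBC3, FAS) and raised BTG1, against 8.57% lower and 6.26% higher. The median log2 fold change of the members was -0.63, -0.80 and -0.84 for SP, SOAβPIN-SP and SOANAP-SP in A549 and -0.29, -0.36 and -0.50 in EA.hy926, while the median over all genes lay between -0.02 and 0.01. Within the 1 experiment that CA shared with each aerosol, every called member differed from CA in the called direction. These libraries are part of the calls, and most called groups did not overlap CA, so this is no separate support. The SP count in A549 fell to 3 without SP replicate 3 or without CA replicate 2. In these bulk libraries a fall in every cell of a line and a fall in only a part of its cells cannot be told apart.

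**Figure D2:**
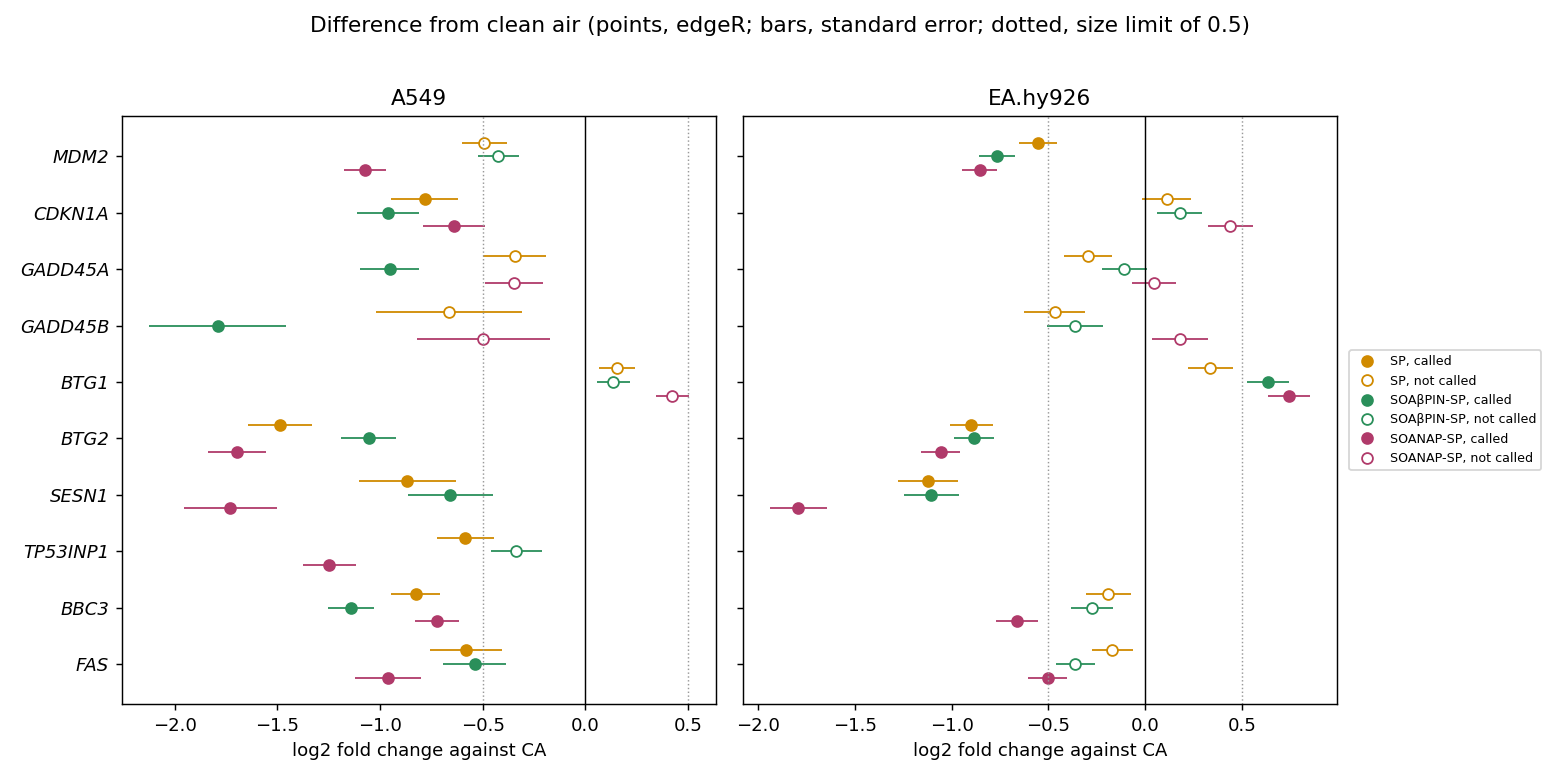
Log2 fold changes of the 10 genes against CA for SP, SOAβPIN-SP and SOANAP-SP in A549 (left) and EA.hy926 (right), with standard errors as bars, filled points for genes past both limits and dotted lines at the size limit of 0.5. SESN1, BTG2 and MDM2 lie to the left in both lines with SOANAP-SP, and CDKN1A lies to the left of 0 only in A549.

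MDM2 (chr12:68808177-68845544, plus strand), the ligase that marks p53 for degradation, fell in both lines with SOANAP-SP. In A549 the 4 CA libraries had 153, 141, 148 and 127 CPM, and the 4 SOANAP-SP libraries had 59.0, 67.1, 80.2 and 63.9. SP gave 109, 103 and 91.8 CPM, and SOAβPIN-SP gave 96.7, 123, 100.5 and 103. Every aerosol library was below every CA library, and those with SOANAP-SP were the lowest. The log2 fold change was -1.07 ± 0.10 for SOANAP-SP (edgeR adjusted p = 3.6e-07), -0.49 ± 0.11 for SP (0.00653) and -0.42 ± 0.10 for SOAβPIN-SP (0.00362), the last 2 inside the size limit. SP passed that limit without SP replicate 1 (-0.55), SP replicate 2 (-0.50) or CA replicate 4 (-0.54), and SOAβPIN-SP without SOAβPIN-SP replicate 2 (-0.50).

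In EA.hy926, MDM2 stood at 193, 212, 231 and 176 CPM in CA. The SP libraries had 131, 156 and 127 CPM, the SOAβPIN-SP libraries 102, 121.5, 132 and 122, and the SOANAP-SP libraries 108, 114, 115.5 and 110.4. All 11 aerosol libraries lay below the CA range. MDM2 fell by 0.56 ± 0.10 with SP, by 0.76 ± 0.09 with SOAβPIN-SP and by 0.86 ± 0.09 with SOANAP-SP on the log2 scale (edgeR adjusted p = 0.000636, 8.1e-06 and 9.6e-07). The SP value slipped inside the size limit without CA replicate 3 (-0.49) or SP replicate 3 (-0.50). Exons of MDM2 share 9.45% of their bases with an opposite-strand lncRNA, 5.29% with a pseudogene on the same strand and 1.6% with the opposite-strand gene CPM (carboxypeptidase M, unrelated to the unit), and whether the counts used strand was not given in the sources used here.

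CDKN1A (chr6:36676460-36687337, plus) encodes p21, the inhibitor of cyclin-dependent kinases that carries out much of p53's cell cycle arrest. It fell in A549 with all 3 aerosols and was not called in EA.hy926 with any. In A549 the CA libraries had 1138, 1075, 879.7 and 1021 CPM and the SOAβPIN-SP libraries 417, 595, 582 and 519.7. SP gave 533, 705 and 557 CPM, and SOANAP-SP gave 558, 572.0, 896 and 616. Only replicate 3 of SOANAP-SP reached the CA range. The log2 fold changes were -0.78 ± 0.16 for SP, -0.96 ± 0.15 for SOAβPIN-SP and -0.64 ± 0.15 for SOANAP-SP (edgeR adjusted p = 0.00656, 0.000224 and 0.00371). Without that replicate the SOANAP-SP value was -0.81.

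In EA.hy926, CDKN1A had 263.5, 325.5, 379.6 and 293 CPM in CA and 422.5, 450.4, 494 and 344 with SOANAP-SP. With SP it had 316, 380.4 and 325 CPM and with SOAβPIN-SP 304, 385, 379.8 and 359. The groups overlapped in all 3 comparisons. The SOANAP-SP difference of 0.44 ± 0.12 had an edgeR adjusted p of 0.00818 and stayed inside the size limit, which it passed without CA replicate 3 (0.54) or SOANAP-SP replicate 4 (0.53). SP (0.11 ± 0.13) and SOAβPIN-SP (0.18 ± 0.12) did not pass the test.

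GADD45A (chr1:67685201-67688334, plus) and GADD45B (chr19:2476122-2478259, plus) encode small stress proteins that bind PCNA, CDK1 and the kinase MAP3K4, and GADD45B is also an early NF-κB and TGF-β target. Both fell in A549 with SOAβPIN-SP, and neither was called with SP or SOANAP-SP. GADD45A had 75.5, 85.7, 81.4 and 92.8 CPM in CA and 38.4, 47.8, 34.3 and 52.02 with SOAβPIN-SP. With SP it had 55.5, 81.0 and 62.1 CPM and with SOANAP-SP 64.8, 51.3, 75.7 and 72.8. The SOAβPIN-SP libraries lay below all CA libraries (log2 fold change -0.95 ± 0.14, edgeR adjusted p = 0.000109), while the SP (-0.34 ± 0.15) and SOANAP-SP (-0.35 ± 0.14) groups overlapped CA.

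GADD45B was the member that varied most among CA libraries of A549, with 288, 204, 421.5 and 519.6 CPM. With SOAβPIN-SP it had 90.6, 126, 83.2 and 114 CPM, with SP 155, 342 and 181, and with SOANAP-SP 237, 172, 330.4 and 277. The SOAβPIN-SP libraries were again below every CA library and the other aerosols were not. GADD45B fell by 1.79 ± 0.34 with SOAβPIN-SP (edgeR adjusted p = 0.00226), and its differences for SP (-0.67 ± 0.36) and SOANAP-SP (-0.50 ± 0.32) did not pass. Within the shared experiments the differences were -0.84 for SOAβPIN-SP, -0.60 for SP and -0.83 for SOANAP-SP, 1 pair each. Each of these rests on a different CA library, so the spread between CA libraries remains in them.

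In EA.hy926 neither GADD45 gene was called. GADD45A ran from 62.5 to 78.5 CPM in CA and from 51.99 to 82.9 over the 11 aerosol libraries. GADD45B had 121, 149, 143 and 108 CPM in CA and 100.5, 92.9 and 88.8 with SP, which did not overlap, with a difference of -0.47 ± 0.16 (edgeR adjusted p = 0.0487). That value passed the size limit without CA replicate 4 (-0.55). With SOANAP-SP the libraries had 155, 175, 104 and 156 CPM, so replicate 3 lay below all CA libraries and the other 3 above them.

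BTG1 (chr12:92140278-92145846, minus) and BTG2 (chr1:203305491-203309602, plus) recruit the CCR4-NOT deadenylase to messenger RNAs and slow proliferation, and BTG2 is the classical p53 target of the pair. BTG2 fell in every comparison with CA in both lines. In A549 it had 24.9, 29.2, 23.1 and 20.7 CPM in CA and 6.54, 7.02, 8.84 and 7.87 with SOANAP-SP. With SP it had 8.82, 7.15 and 10.2 CPM and with SOAβPIN-SP 9.84, 12.2, 11.6 and 13.1. The lowest CA library was above the highest aerosol library by more than the range of any aerosol group. The log2 fold changes were -1.49 ± 0.16, -1.05 ± 0.13 and -1.70 ± 0.14 for SP, SOAβPIN-SP and SOANAP-SP (edgeR adjusted p = 3.0e-05, 1.4e-05 and 1.1e-07).

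In EA.hy926, BTG2 had 52.3, 60.8, 52.5 and 46.5 CPM in CA. With SP it had 31.4, 28.9 and 24.7 CPM, with SOAβPIN-SP 29.9, 27.6, 30.8 and 26.6, and with SOANAP-SP 26.1, 27.8, 26.1 and 21.8. CA did not overlap any aerosol group. BTG2 fell by 0.90 ± 0.11, 0.89 ± 0.10 and 1.06 ± 0.10 on the log2 scale (edgeR adjusted p up to 2.1e-05). Leaving out any 1 library kept every BTG2 call in both lines.

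Against CA, BTG1 was the only member called higher, with the aged aerosols in EA.hy926. In EA.hy926 it had 44.02, 58.2, 52.1 and 50.7 CPM in CA, 73.1, 82.1, 85.6 and 77.1 with SOAβPIN-SP and 84.1, 104, 82.5 and 71.9 with SOANAP-SP. SP gave 58.1, 72.9 and 62.8 CPM. Both aged aerosols lay above all CA libraries, and the lowest SP library was within the CA range. BTG1 rose by 0.63 ± 0.11 with SOAβPIN-SP and by 0.74 ± 0.11 with SOANAP-SP (edgeR adjusted p = 0.000321 and 3.3e-05), and the SP difference was 0.34 ± 0.12 (0.0517).

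In A549, where BTG1 was more abundant, it had 230.4, 265, 243 and 247 CPM in CA and 325, 319.8, 351 and 329.5 with SOANAP-SP. All 4 SOANAP-SP libraries were above the CA range. The difference of 0.43 ± 0.08 had an edgeR adjusted p of 0.000453 and stayed inside the size limit, and SP (0.16 ± 0.09) and SOAβPIN-SP (0.14 ± 0.08) did not pass the test. Exons of BTG1 share 10.4% of their bases with LINC01619 and 5.64% with BTG1-DT, so some of its reads cannot be assigned with certainty.

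SESN1 (chr6:108984309-109094846, minus) encodes sestrin 1, which restrains mTORC1 and supports the defence against peroxides. It fell in every comparison with CA, most with SOANAP-SP. In EA.hy926 it had 38.9, 28.6, 29.9 and 30.5 CPM in CA and 11.1, 10.5, 6.497 and 8.93 with SOANAP-SP. SP gave 15.5, 14.7 and 13.9 CPM and SOAβPIN-SP gave 14.5, 17.9, 13.8 and 13.3. The 3 aerosol groups lay below CA, and the SOANAP-SP group lay below both others. The log2 fold changes were -1.12 ± 0.15, -1.11 ± 0.14 and -1.79 ± 0.15 for SP, SOAβPIN-SP and SOANAP-SP (edgeR adjusted p up to 5.0e-05).

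In A549, SESN1 was low, at 7.34, 9.17, 7.42 and 7.63 CPM in CA and 1.82, 2.12, 3.94 and 1.82 with SOANAP-SP. With SP it had 3.29, 5.02 and 4.79 CPM and with SOAβPIN-SP 4.01, 6.33, 4.49 and 4.90. No aerosol library reached the CA range, and replicate 3 stood above the other SOANAP-SP libraries. These levels rest on 70 to 107 counts per library in CA, 34 to 42 with SP, 31 to 97 with SOAβPIN-SP and 20 to 37 with SOANAP-SP. The log2 fold change was -1.73 ± 0.23 with SOANAP-SP (edgeR adjusted p = 1.5e-05), and -0.87 ± 0.24 with SP and -0.66 ± 0.21 with SOAβPIN-SP had adjusted p-values of 0.024. The SP call was lost without SP replicate 1 (-0.69, edgeR adjusted p = 0.146), SP replicate 3 (-0.94, 0.0564) or CA replicate 2 (-0.79, 0.0563). The SOAβPIN-SP call was lost without SOAβPIN-SP replicate 1 (-0.58, 0.0734), SOAβPIN-SP replicate 3 (-0.61, 0.0617) or CA replicate 2 (-0.57, 0.0643).

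TP53INP1, which aids p53 phosphorylation and autophagy, was measured well only in A549. It had 22.3, 28.1, 20.9 and 19.4 CPM in CA, 10.1, 8.70, 10.97 and 8.65 with SOANAP-SP, 17.5, 13.6 and 14.1 with SP and 17.99, 18.8, 17.6 and 17.6 with SOAβPIN-SP. Every aerosol library was below every CA library, and the SOANAP-SP libraries were the lowest. It fell by 1.25 ± 0.13 with SOANAP-SP (edgeR adjusted p = 1.1e-06) and by 0.58 ± 0.14 with SP (0.0104), and the SOAβPIN-SP difference of -0.34 ± 0.12 had an adjusted p of 0.0509. The SP call was lost without SP replicate 3 (-0.54, edgeR adjusted p = 0.0559) or CA replicate 2 (-0.46, 0.0328, inside the size limit). In EA.hy926 it had 1.10 to 1.91 CPM in CA and 0.653 to 1.46 over the aerosol libraries, where the depth gave too few counts for a test.

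BBC3 (chr19:47220822-47232766, minus) encodes PUMA, the BH3-only protein through which p53 starts mitochondrial apoptosis. In A549 it had 121, 142, 124.5 and 119.5 CPM in CA and 48.8, 61.7, 53.8 and 64.8 with SOAβPIN-SP. With SP it had 67.2, 80.3 and 67.2 CPM and with SOANAP-SP 73.3, 63.6, 91.5 and 79.2. No aerosol library reached the CA range, and SOAβPIN-SP gave the lowest mean. BBC3 fell by 0.83 ± 0.12 with SP, 1.14 ± 0.11 with SOAβPIN-SP and 0.72 ± 0.11 with SOANAP-SP (edgeR adjusted p = 0.000429, 9.8e-07 and 5.6e-05).

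In EA.hy926, BBC3 had 111, 133, 141 and 108 CPM in CA and 78.2, 63.6, 77.2 and 93.0 with SOANAP-SP, the only aerosol whose difference was called. The 4 SOANAP-SP libraries were below every CA library. With SP (116, 111.5 and 95.8 CPM) and SOAβPIN-SP (100.3, 113, 95.1 and 99.3 CPM) the libraries overlapped CA. The log2 fold change with SOANAP-SP was -0.66 ± 0.11 (edgeR adjusted p = 0.000114), and those with SP (-0.19 ± 0.12) and SOAβPIN-SP (-0.27 ± 0.11) did not pass. The SP and CA libraries of the experiment they shared differed by 0.05.

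FAS (chr10:88953813-89029605, plus) encodes the death receptor CD95, which p53 induces through its first intron. In A549 it had 15.3, 15.1, 11.2 and 12.7 CPM in CA and 7.45, 7.02, 7.35 and 6.14 with SOANAP-SP. SP gave 10.3, 9.91 and 7.07 CPM and SOAβPIN-SP gave 6.73, 11.1, 9.90 and 9.24. All aerosol libraries lay below CA, but the highest SOAβPIN-SP library nearly met the lowest of CA. FAS fell by 0.96 ± 0.16 with SOANAP-SP (edgeR adjusted p = 0.000146), by 0.54 ± 0.15 with SOAβPIN-SP (0.0142) and by 0.58 ± 0.17 with SP (0.0369). The SP call was lost when any of SP replicates 1, 2 and 3 or CA replicates 1 and 2 was left out (-0.69 to -0.43, edgeR adjusted p from 0.0548 to 0.19) and with library totals or only the 2 compared groups. The SOAβPIN-SP call was lost without CA replicate 1 (-0.48), CA replicate 2 (-0.48) or SOAβPIN-SP replicate 1 (-0.43).

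In EA.hy926, FAS had 41.2, 41.0, 32.1 and 36.9 CPM in CA and 25.0, 28.1, 29.5 and 23.9 with SOANAP-SP. SOAβPIN-SP gave 31.2, 28.4, 28.4 and 29.9 CPM and SP 37.8, 30.2 and 33.1. Both aged aerosols lay below the CA range and SP overlapped it. The SOANAP-SP difference of -0.50 ± 0.10 (edgeR adjusted p = 0.000714) was at the edge of the size limit and slipped inside it without CA replicate 1 or 2 or SOANAP-SP replicate 1 or 4 (-0.48 to -0.46). The SOAβPIN-SP difference of -0.36 ± 0.10 had an edgeR adjusted p of 0.0129 and stayed inside it. FAS exons share 6.48% of their bases with an opposite-strand lncRNA.

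Set against each other, the aged aerosols differed in 6 members in A549 and in 1 in EA.hy926. In A549, SOANAP-SP had less MDM2 (-0.65 ± 0.10), BTG2 (-0.64 ± 0.15), SESN1 (-1.07 ± 0.24) and TP53INP1 (-0.91 ± 0.13) than SOAβPIN-SP and more GADD45A (0.61 ± 0.14) and GADD45B (1.30 ± 0.33), with edgeR adjusted p-values of 0.000224 to 0.0213. These 6 of 10 members stood against 7.48% of all genes. The GADD45A groups overlapped, and its difference was 0.47 with library totals, a scaling under which the median of all genes was -0.12 here. The GADD45B call was lost without SOAβPIN-SP replicate 1 (1.24, adjusted p = 0.0588) or SOANAP-SP replicate 3 (1.15, 0.0594). BBC3 (0.42 ± 0.11) and BTG1 (0.29 ± 0.08) passed the edgeR test and stayed inside the size limit, which BBC3 passed without SOANAP-SP replicate 2 (0.51). FAS was also called without SOAβPIN-SP replicate 1 (-0.53, adjusted p = 0.0399).

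Against SP, SOANAP-SP had less MDM2 (-0.58 ± 0.11, edgeR adjusted p = 0.00317), TP53INP1 (-0.66 ± 0.14, 0.00797) and SESN1 (-0.86 ± 0.27, 0.0378) in A549, 3 of 10 members where 7.13% of genes differed. The TP53INP1 call was lost without SP replicate 1 (-0.53, edgeR adjusted p = 0.0777), which left MDM2 alone. The SESN1 call was lost without any 1 of the 3 SP libraries or of SOANAP-SP replicates 1, 2 and 4 (adjusted p from 0.0585 to 0.141), and its groups overlapped. SOAβPIN-SP and SP differed in 0 of 10 members by edgeR, where 0.0679% of genes differed, with 4 members at an unadjusted p under 0.05, 0 called by limma-voom and 1 by DESeq2. The share of all genes at that unadjusted cut is not given, so the 4 have no reference. In that comparison the replicate numbers paired the libraries, and with the replicate block GADD45A was called lower with SOAβPIN-SP (-0.68, edgeR adjusted p = 0.0438).

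In EA.hy926, SESN1 was the only member called between aerosols. It was lower with SOANAP-SP than with SOAβPIN-SP (-0.69 ± 0.15, edgeR adjusted p = 0.0366, against 0.598% of genes differing) and than with SP (-0.67 ± 0.16, 0.0458, against 0.794%). Its libraries did not overlap in either comparison. The first call was lost without SOAβPIN-SP replicate 1, 2 or 3 or SOANAP-SP replicate 3 or 4 (edgeR adjusted p from 0.0566 to 0.112). The second was lost without any 1 of the 7 libraries compared (0.0595 to 0.212) and with limma-voom. GADD45B was higher with SOANAP-SP than with SOAβPIN-SP (0.54 ± 0.15, edgeR adjusted p = 0.0866) and than with SP (0.65 ± 0.16, 0.0587) without a call, and both passed without SOANAP-SP replicate 3 (0.68 and 0.78). BBC3 was lower with SOANAP-SP than with SP (-0.47 ± 0.12, 0.0537), and this was called without SOANAP-SP replicate 4 or SP replicate 3 (-0.56). SOAβPIN-SP and SP differed in 0 of 9 members by edgeR, with 0% of all genes differing, 2 members at an unadjusted p under 0.05 and 0 called by limma-voom or DESeq2. Here too the share of all genes at the unadjusted cut is not given.

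CDKN1A was the member whose response set the lines apart with all 3 aerosols. The response in EA.hy926 was above that in A549 by 0.89 ± 0.22 for SP, 1.12 ± 0.20 for SOAβPIN-SP and 1.07 ± 0.20 for SOANAP-SP on the log2 scale (edgeR interaction, adjusted p = 0.0177, 0.000378 and 0.000562). BBC3 differed likewise for SP (0.63 ± 0.17, 0.0286) and SOAβPIN-SP (0.85 ± 0.16, 0.000304). For SOANAP-SP, where BBC3 fell in both lines, its difference was 0.05 ± 0.16. GADD45A (0.82 ± 0.19, 0.0037) and GADD45B (1.41 ± 0.37, 0.0131) differed for SOAβPIN-SP, and BTG2 (0.63 ± 0.17, 0.0118) for SOANAP-SP. That made 2, 4 and 2 of the 9 members tested in each line, where 3.37%, 10.1% and 11.4% of genes differed. The responses of MDM2, SESN1, BTG1 and FAS were not called different between the lines for any aerosol, at differences from -0.48 to 0.48, of which BTG1 for SOAβPIN-SP passed the test inside the size limit (0.0141).

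Both lines of a coculture came from the same insert, and with that coculture as a replicate block the GADD45B difference was 1.34 with an edgeR adjusted p of 0.062. GADD45B also lost its call without CA replicate 4 (1.10, adjusted p = 0.0698). The SP differences of CDKN1A (0.77 to 0.88) and BBC3 (0.54 to 0.67) were lost without SP replicate 1, SP replicate 3, CA replicate 1 or CA replicate 4, with edgeR adjusted p-values of 0.0527 to 0.174. The BTG2 difference was lost without SOANAP-SP replicate 1 (0.56, 0.0508) or 2 (0.55, 0.0618). BTG1 passed the size limit for SOAβPIN-SP without SOAβPIN-SP replicate 2 or CA replicate 2 (0.50), and BTG2 was called for SP without SP replicate 3 (0.79).

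**Figure D3:**
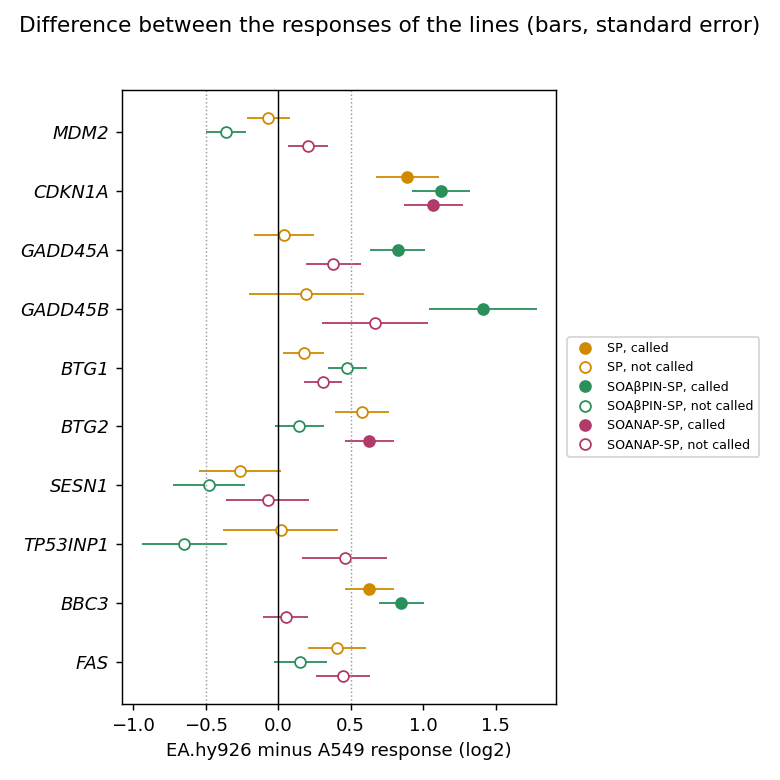
Difference of the log2 response to each aerosol between the lines (EA.hy926 minus A549) for the 10 genes, with standard errors as bars, filled points for genes past both limits and dotted lines at 0.5. The CDKN1A points lie right of 0.5 for all 3 aerosols, the SESN1 points lie left of 0, and the TP53INP1 points rest on 7 to 26 counts per EA.hy926 library.

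Other p53 targets, a list of 30 genes, held members called in each direction. With SOANAP-SP in A549, 10 of 29 tested were lower and 1 higher, where 11.3% and 6.92% of all genes were, and the list's median log2 fold change was -0.28. The lowest was TIGAR, which slows glycolysis (-1.19 ± 0.14), from 26.3 to 31.4 CPM in CA to 10.9 to 16.1. PHLDA3, which blocks AKT at the membrane (-0.99 ± 0.10), and TRIAP1, a mitochondrial survival factor (-0.76 ± 0.10), fell with it. GDF15, a stress cytokine, rose (1.14 ± 0.22) from 473 to 1044 CPM in CA to 1340 to 1753. With SP the list had 5 lower and 0 higher, where 3.97% and 2.02% of all genes were. With SOAβPIN-SP it had 6 lower and 1 higher, against 8.93% and 4.31% of all genes. In EA.hy926, 28 were tested, and SP, SOAβPIN-SP and SOANAP-SP lowered 4, 5 and 6 and raised 2, 2 and 3. Of all genes, 5.12%, 6.14% and 8.57% were lower there and 4.72%, 5.04% and 6.26% higher. TIGAR (-1.12 ± 0.11), PHLDA3 (-1.03 ± 0.10) and TRIAP1 (-0.89 ± 0.08) fell with SOANAP-SP there too. KITLG, the ligand of the receptor KIT, rose from 113 to 140 CPM in CA to 329 to 509.8 with SOANAP-SP (1.68 ± 0.15) and did not change detectably in A549 (-0.03 ± 0.19). The list's medians in EA.hy926 were 0.01, -0.08 and -0.08.

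**Figure D4:**
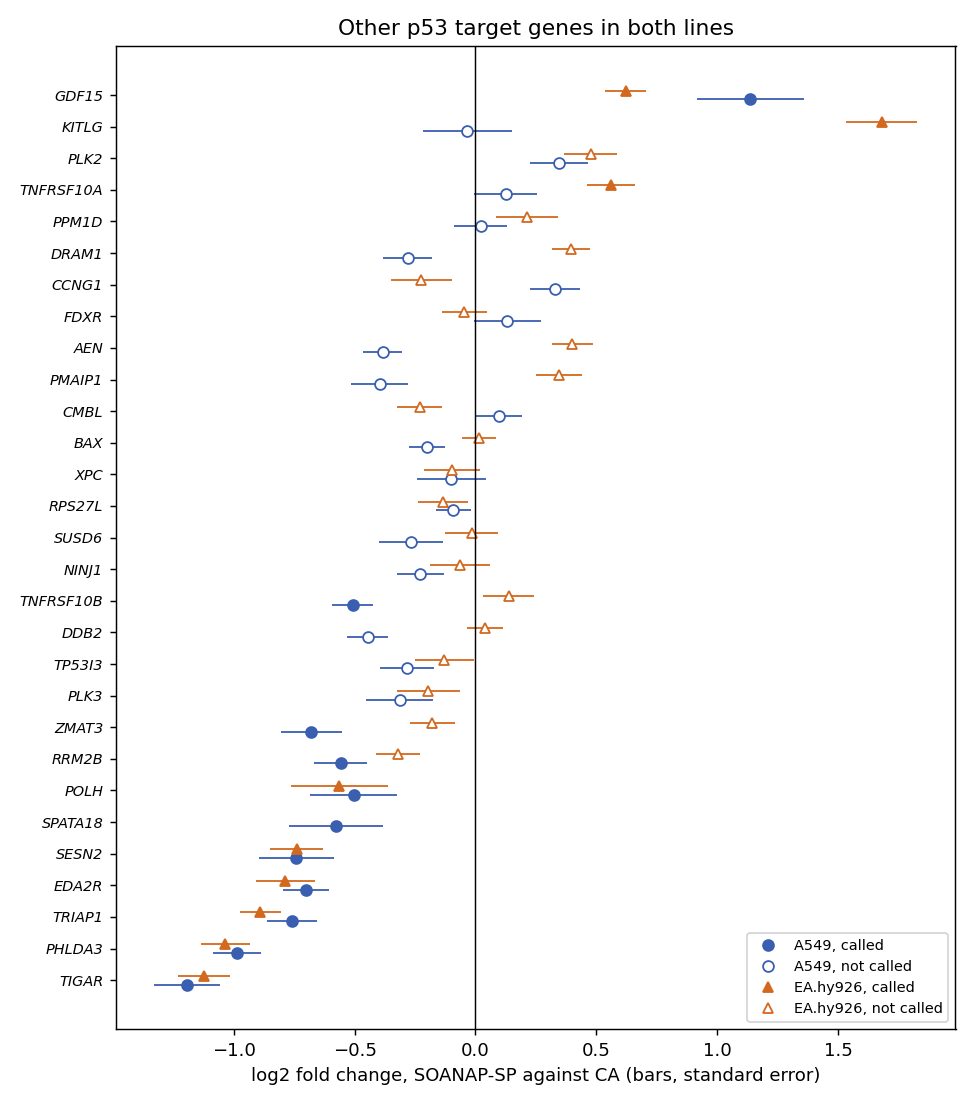
Log2 fold changes of the other p53 targets for SOANAP-SP against CA in A549 (circles) and EA.hy926 (triangles), with standard errors as bars and filled points for genes past both limits, ordered by the mean of the lines. TIGAR, PHLDA3, TRIAP1, EDA2R and SESN2 lie at the low end in both lines, and GDF15 is called higher in both.

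Most genes that regulate p53 were not called. Of 13 tested in A549, 3 were higher with each aerosol and 1 was lower with SOAβPIN-SP. Of all genes, 2.02%, 4.31% and 6.92% were higher there with SP, SOAβPIN-SP and SOANAP-SP, and 8.93% were lower with SOAβPIN-SP. The higher ones with SOANAP-SP were SIRT1, a deacetylase of p53 (0.82 ± 0.11), KAT5, an acetyltransferase of p53 (0.57 ± 0.10), and CHEK2, a damage kinase (0.54 ± 0.15). In EA.hy926, SIRT1 rose with SOANAP-SP (1.05 ± 0.11) and was the only 1 of 11 called, while 2 were higher with each of SP and SOAβPIN-SP. Of all genes, 4.72%, 5.04% and 6.26% were higher there with SP, SOAβPIN-SP and SOANAP-SP.

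Among the paralogs of the members and the CDK inhibitors, SOANAP-SP raised GADD45G (1.72 ± 0.44) and TOB2 (0.80 ± 0.09) and lowered SESN2 (-0.74 ± 0.16) of 14 tested in A549. In EA.hy926 it raised TOB1 (1.23 ± 0.10) and BTG3 (0.79 ± 0.12), relatives of BTG1, and lowered the CDK inhibitors CDKN2C (-0.87 ± 0.14) and CDKN1B (-0.64 ± 0.12, named after its values were seen) and the sestrin SESN2 (-0.74 ± 0.11), also on the list of other p53 targets, of 11 tested. SP and SOAβPIN-SP each lowered 3 and raised 0 in A549 and lowered 1 and raised 2 in EA.hy926. Of all genes, SP, SOAβPIN-SP and SOANAP-SP lowered 3.97%, 8.93% and 11.3% in A549 and raised 2.02%, 4.31% and 6.92%. In EA.hy926 they lowered 5.12%, 6.14% and 8.57% and raised 4.72%, 5.04% and 6.26%. TOB1 stood at 57.1 ± 7.7 CPM in CA and 134 ± 10.6 with SOANAP-SP (SD, n = 4) in EA.hy926.

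In the BCL2 family and death receptor pathway, which BBC3 and FAS feed, SOANAP-SP lowered 6 and raised 1 of 18 tested in A549 and lowered 5 and raised 3 of 16 in EA.hy926, where 11.3% and 8.57% of all genes were lower and 6.92% and 6.26% higher. The lines parted in CFLAR, which blocks caspase 8 at the death receptors. It fell from 45.9 ± 4.3 to 27.8 ± 2.6 CPM (SD, n = 4) in A549 and rose from 95.0 ± 5.1 to 210 ± 17 in EA.hy926, and the difference between these responses passed the edgeR interaction test. The decoy receptor TNFRSF10D rose in EA.hy926 (2.30 ± 0.17), and BCL2L1 (-1.04 ± 0.09) and BAK1 (-0.94 ± 0.12) fell there. In A549 BCL2L11 (-0.65 ± 0.12), FADD (-0.58 ± 0.14) and CASP8 (-0.56 ± 0.14) fell. SP lowered 2 and raised 0 of this pathway in A549 and lowered 4 and raised 3 in EA.hy926. Of all genes SP lowered 3.97% and 5.12% in these lines and raised 2.02% and 4.72%. SOAβPIN-SP lowered 4 and raised 1 in A549, against 8.93% and 4.31% of all genes. In EA.hy926 it lowered 3 and raised 3, against 6.14% and 5.04%.

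Few cell cycle genes that p53 represses through p21 and the DREAM complex were called. Of 16 tested, SP and SOAβPIN-SP each raised 2 and lowered 0 in A549. Of all genes, 2.02% and 4.31% were higher there and 3.97% and 8.93% lower. With each, 14 of 16 had positive differences, 7 were at an unadjusted p under 0.05 and the medians were 0.26 and 0.26. SOANAP-SP raised 0 and lowered only CCNA2, cyclin A2 (-0.71 ± 0.11), with 7 at an unadjusted p under 0.05 and a median of -0.02. Among all genes it raised 6.92% and lowered 11.3% in A549. In EA.hy926, SP and SOAβPIN-SP changed 0 by edgeR, with 4 and 3 at an unadjusted p under 0.05. SOANAP-SP lowered MKI67 (-0.93 ± 0.32) and raised E2F1 (0.75 ± 0.13) there, with 10 of 16 at an unadjusted p under 0.05 and a median of -0.16. Of all genes, SP, SOAβPIN-SP and SOANAP-SP raised 4.72%, 5.04% and 6.26% and lowered 5.12%, 6.14% and 8.57% in EA.hy926. These shares are of called genes. The share of all genes at an unadjusted p under 0.05 is not given, so the counts at that cut have no reference. Of the epithelial markers, 5 of 9 were higher in A549 with SOANAP-SP, where 6.92% of all genes were, led by MUC1 (0.97 ± 0.27) and KRT19 (0.81 ± 0.13), and their summed level was 16760 to 17950 CPM there, 16490 to 18170 with SP and 14700 to 19300 with SOAβPIN-SP against 14260 to 15680 in CA. The part of these marker changes in the members' levels was not tested.

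Over the 15 libraries of a line, the genes most like each member in log2 CPM were few of the other members, and the libraries share their 4 exposures, so these correlations are descriptions. In A549, GADD45B ran closest to SOCS3, the feedback inhibitor of JAK signalling (Pearson r = 0.98), and GADD45A to CCN2, a matrix protein that YAP induces (0.96). BTG2 ran closest to PHLDA3 (0.94), another p53 target. MDM2 was the gene second most like SESN1 (0.94), after TFAP4 (0.95), which was also the gene most like TP53INP1 (0.95). The closest to CDKN1A was the histone gene H2AC6 (0.97) and the closest to BBC3 was ATG3 (0.97). In EA.hy926, GADD45A was closest to GADD45B (0.79), BTG1 to CSRNP1 (0.94), MDM2 to TRAM2 (0.97) and SESN1 to GIMAP6 (0.95).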

How the data were processed

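Poly-A RNA of both lines of each coculture was sequenced. The authors trimmed reads with cutadapt, aligned them with STAR (version 2.7.3a in the submitters' notes) to GRCh38, removed duplicates by molecular identifier and counted unique reads per Ensembl gene with HTSeq. The submitters' notes name GRCm38 instead, a mouse build, while the gene identifiers are human, and 18395 of 18460 were found in GENCODE release 44. The deposited counts are raw, and the deposited normalized signal is the count divided by 1 factor per library. The sequencing batch that the authors corrected for is not named in the sources used here, so no batch term was fitted.

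Counts were tested with edgeR 4.0.16 (R 4.3.3, TMM scaling, robust quasi-likelihood test) over the 15 libraries of a line, for genes that reached 30 counts in 3 or more libraries, with Benjamini-Hochberg adjustment over all genes tested. A gene was called where its adjusted p was 0.05 or less and its log2 fold change was 0.5 or more, up or down. Differences between lines came from a fit of all 30 libraries. In place of the paper's minimum CPM a minimum count was used, because the former drops members. On simulated counts for SOANAP-SP against CA, 98 of 100 genes changed by 1 log2 unit were recovered in A549 and 100 of 100 in EA.hy926. There were 5 and 4 false calls. Smaller changes were not simulated, so recovery near the size limit of 0.5 is not known. The alternatives were limma-voom (limma 3.58.1), DESeq2 1.42.0, other scalings and minimums, blocks, the authors' normalized signal and leaving out each library. CPM uses TMM-scaled library sizes, and errors are standard errors of the fit unless named SD.

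The members and lists were chosen with earlier results of these data known. All 10 members are named, and from each other list at most 4 genes per line, those with the largest called change with SOANAP-SP against CA; exceptions are marked. Genes most like a member had the highest Pearson r of log2 CPM. Replicate numbers were taken to pair libraries where every pair's deviations correlated above 0.1, which held for SOAβPIN-SP against SP in A549 (0.26 to 0.40, 3 pairs). Both libraries of a coculture came from the same insert. The result of 1 gene on the list of p53 regulators is not reported here.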

Additional observations from a re-analysis of the deposited data

Results flagged for a closer look

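In 3 of 60 groups of 4 libraries, 1 value stood far from the others. A nominal rate of 1 in 20 groups would give 3, but the genes share libraries, so the groups are not independent. Whether these values arose by chance was not tested. SESN1 in A549 had 9.17 CPM in CA replicate 2 and 3.94 CPM in SOANAP-SP replicate 3, each above the rest of its group. TP53INP1 in EA.hy926 had 1.46 CPM in SOANAP-SP replicate 4, at a depth too low for a test.

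The response to an aerosol differed between the lines in 8 instances by the edgeR interaction test, each given as EA.hy926 minus A549 on the log2 scale. CDKN1A differed by 0.89 for SP, 1.12 for SOAβPIN-SP and 1.07 for SOANAP-SP. BBC3 differed by 0.63 for SP and 0.85 for SOAβPIN-SP. GADD45A and GADD45B differed by 0.82 and 1.41 for SOAβPIN-SP, and BTG2 by 0.63 for SOANAP-SP.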

How the results depend on the processing

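No called member changed direction under any alternative. Of the single-gene values, 2379 kept their side of the threshold, 62 lost a call and 28 gained one, and 42 uncalled values of at most 0.195 changed sign. With a minimum of 30 CPM, which removes low members from the test, the calls went from 6 to 3 for SP, 7 to 4 for SOAβPIN-SP and 7 to 3 for SOANAP-SP against CA in A549, from 6 to 3 for SOANAP-SP against SOAβPIN-SP and 3 to 1 against SP there, and from 1 to 0 for SOANAP-SP against SOAβPIN-SP in EA.hy926. The same minimum removed SESN1 from the test in EA.hy926, so its call was also lost for each aerosol against CA there. For SOANAP-SP against SP in EA.hy926, GADD45B was called (0.64, edgeR adjusted p = 0.0496) in place of SESN1. DESeq2 called 1 member for SOAβPIN-SP against SP in A549 and 2 for SOANAP-SP against SOAβPIN-SP and 2 against SP in EA.hy926. The last was also 2 with library totals or upper quartile scaling and 0 with limma-voom or with the experiment as a random block, and the cause was not tested. The replicate block called 1 for SOAβPIN-SP against SP in A549, where the numbers paired the libraries. With the coculture as a replicate block, 3 of 4 members stayed called between lines for SOAβPIN-SP. Leaving out 1 library gave 3 to 7 calls for SP, 5 to 8 for SOAβPIN-SP and 7 to 7 for SOANAP-SP against CA in A549, 5 to 7 for SOANAP-SP against SOAβPIN-SP, 1 to 3 against SP and 0 to 0 for SOAβPIN-SP against SP. In EA.hy926 the same comparisons gave 2 to 4, 4 to 4, 5 to 7, 0 to 1, 0 to 1 and 0 to 0. Between lines it gave 0 to 2, 3 to 5 and 1 to 2 for SP, SOAβPIN-SP and SOANAP-SP, and 7 to 7 in CA, counting TP53INP1. Depth limits TP53INP1 in EA.hy926 and SESN1 in A549.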
